A study of Mus musculus with 2 samples.

Results

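The apolipoprotein genes Apoa1, Apoa2, Apob, Apoc1, Apoc2 and Apoe were followed in droplet-based single-cell RNA sequencing (scRNA-seq) of mouse embryonic stem cells (ESCs) and of epiblast-like cells made from them. All 6 symbols were found among the 32286 features of both libraries. They were chosen on values measured in these libraries, across stage, cell line and Gata6/Sox17 status, so those values are descriptions and no test of them was made. The libraries held ESCs grown in serum/LIF medium on feeder cells (0 h, ESC) and cells after 48 h in N2B27 with activin A, bFGF and KSR on Matrigel (48h-EpiLC), both labelled as ICR strain. Equal numbers of WT cells, which carry the ROSAmT/mG allele and so transcribe tdTomato, and Cnot8 KO cells, derived from blastocysts of heterozygote matings after a guide RNA against an early exon of Cnot8, had been mixed in each. The product of Cnot8 removes poly(A) tails from mRNAs as a subunit of Ccr4-Not.

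Apolipoproteins are the protein part of lipoprotein particles and are best known from liver, intestine and the visceral endoderm of the yolk sac. Apob is the scaffold of chylomicrons and very-low-density particles, Apoa1 and Apoa2 are the main proteins of high-density particles, Apoe is a ligand of the low-density lipoprotein receptor family, Apoc2 is the activator of lipoprotein lipase and Apoc1 is a small exchangeable apolipoprotein that can hold back the uptake of particles. Primitive endoderm, marked by Gata6 and Sox17, is the lineage from which visceral endoderm arises and a cell type that naïve ESC cultures can hold in small numbers.

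Each stage had 1 library and no replicate, so that stage and library cannot be told apart and every interval below covers counting error only. Unique molecular identifiers (UMIs), each standing for a captured mRNA molecule, numbered 144584246 over 13184 barcodes for ESCs and 163771168 over 12427 barcodes for 48h-EpiLCs. The filter of at least 1000 genes per cell, with no more than 10% of UMIs mitochondrial, retained 11054 and 9400 cells, and 41 barcode sequences occurred in both libraries. WT-line cells had at least 1 tdTomato UMI and none of the Y-linked Ddx3y, Eif2s3y, Kdm5d and Uty, and KO-line cells had no tdTomato and at least 2 UMIs of those genes. This gave 435 WT-line and 2978 KO-line cells in the ESC library (medians of 13151 and 13368 UMIs per cell) and 368 and 2977 in the 48h-EpiLC library (15598 and 17628). The other cells met neither definition, and 35 cells in each library had both tdTomato and at least 2 Y-linked UMIs. The lines thus differ in Y-linked genes as well as in Cnot8, and line and genotype cannot be told apart. The KO assignment is inferred from tdTomato and the Y-linked genes, and Cnot8 counts were not used to check it. The guide targeted an early exon, whereas 3′ counting reads the far end of the transcript. Its level was 43.1 CPM (UMIs per 1000000 UMIs of the class) in WT-line and 72.1 CPM in KO-line ESCs, and 49.7 and 62.6 CPM in 48h-EpiLCs. The markers of each stage went with its label. The summed level of 6 naïve markers went from 1027 CPM in WT-line ESCs to 115 CPM in WT-line 48h-EpiLCs and from 1312 to 226 CPM in the KO line, while that of 4 formative markers went from 309.7 to 1109 CPM and from 351 to 954 CPM. In the ESC library 114 cells had at least 10 UMIs of 6 fibroblast markers and are called feeder-like, against 1 in the 48h-EpiLC library, and 122 ESC-library cells had 5 to 19 such UMIs.

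Of the 6 genes, 3 lie together. In GRCm38 with GENCODE M21, Apoc2 (chr7:19671579-19677941), Apoc1 (chr7:19689481-19692660) and Apoe (chr7:19696109-19699188) are all on the minus strand, with Apoc4 between the first 2. Apoa1 (chr9:46228580-46230466), Apoa2 (chr1:171225054-171226379) and Apob (chr12:7977648-8016835) are on the plus strand of other chromosomes. Apoc2 overlaps a further gene model, Gm44805, on the same strand, which was not among the features of the files, so that reads of the 2 cannot be told apart. The 250 bases before the start are shown for the 2 genes whose levels differed most between the lines, Apoc2 and Apoa2, and for Apoe, the most abundant of the 6, so that their sequences can be read beside their levels. They are RefSeq sequences of GRCm38.p6, written 5′ to 3′ on the gene's own strand, with any match to 4 motifs in capitals. The motifs, searched on both strands, were AGATAA for the zinc finger factors to which Gata6 belongs, ACAATG for the Sox family, AGGTCA as the half-site of nuclear receptors, and TATAAA as the box at which the general transcription machinery can assemble.
Apoc2, chr7:19677942-19678191, minus strand: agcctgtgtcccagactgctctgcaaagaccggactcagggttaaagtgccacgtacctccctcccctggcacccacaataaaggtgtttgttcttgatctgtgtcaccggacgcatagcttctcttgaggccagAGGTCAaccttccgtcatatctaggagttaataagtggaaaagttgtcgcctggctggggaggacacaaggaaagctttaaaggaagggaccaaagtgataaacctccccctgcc
Apoa2, chr1:171224804-171225053, plus strand: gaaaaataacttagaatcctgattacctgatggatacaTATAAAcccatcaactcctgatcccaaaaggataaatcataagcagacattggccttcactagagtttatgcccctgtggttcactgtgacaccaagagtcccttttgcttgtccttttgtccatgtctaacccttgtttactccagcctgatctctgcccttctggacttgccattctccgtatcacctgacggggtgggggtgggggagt
Apoe, chr7:19699189-19699438, minus strand: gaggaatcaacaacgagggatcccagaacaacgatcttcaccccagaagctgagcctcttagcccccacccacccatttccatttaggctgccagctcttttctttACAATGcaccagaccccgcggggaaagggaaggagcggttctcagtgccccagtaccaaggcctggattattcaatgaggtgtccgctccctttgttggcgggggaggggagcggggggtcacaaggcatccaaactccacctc

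The Apoc2 window held 1 AGGTCA, beginning 115 bases before the start. The Apoa2 window held 1 TATAAA, 212 bases before it, and the Apoe window 1 ACAATG, 144 bases before it. None of the 3 held AGATAA. Of 32536 windows of this length over all genes, 14.0% held AGGTCA, 12.3% TATAAA, 10.5% ACAATG and 9.97% AGATAA. Each motif thus occurs in many windows, and a match is a description of letters only. GC content was 52% for Apoc2, 46.4% for Apoa2 and 57.2% for Apoe. Among the other members, the Apob window held 1 TATAAA and the Apoa1 window none of the 4 motifs. No window was available for Apoc1, which was not searched. Apoa2 had 2 windows and Apoe 3, of which only that nearest the annotated start was used.

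The 6 genes spanned a wide range of levels, from transcripts found in nearly every cell to a few UMIs per library. Because 3′ UMI counting gives each molecule 1 count whatever the length of its transcript, CPM needs no correction for length between genes. Capture and the assignment of reads can still differ from gene to gene, which was not tested, so the order below is one of counts. Apoe stood first in all 4 classes of cells. Its level was 789 CPM (95% Poisson interval 767 to 811) in WT-line ESCs, 762 CPM (754 to 770) in KO-line ESCs, 342 CPM (327 to 357) in WT-line 48h-EpiLCs and 402 CPM (397 to 407) in KO-line 48h-EpiLCs. In ESCs it made up 86.3% of the UMIs of the 6 genes in the WT line and 80.9% in the KO line. Apoc1 came second everywhere, at 78.2 CPM (71.3 to 85.5) and 103 CPM (100.3 to 106) in WT-line and KO-line ESCs. The 48h-EpiLC values of Apoc1 were 62.2 CPM (56.2 to 68.7) and 77.4 CPM (75.2 to 79.7). The next place changed with the line. Apoc2 held it in the KO line, at 70.9 CPM (68.4 to 73.4) in ESCs and 28.5 CPM (27.1 to 29.9) in 48h-EpiLCs, whereas in the WT line it was at 11.7 CPM (9.15 to 14.7) and 2.57 CPM (1.47 to 4.18). Apoa2 held it in the WT line, at 33.5 CPM (29.1 to 38.4) in ESCs and 18.97 CPM (15.7 to 22.7) in 48h-EpiLCs, whereas in the KO line it was at 4.49 CPM (3.89 to 5.16) and 3.29 CPM (2.84 to 3.78). Among the first 4 genes of each class no neighbours in this order had overlapping intervals, whereas the intervals of Apoa1 and Apob overlapped in 3 of the 4 classes and did not in KO-line 48h-EpiLCs, where Apoa1 was the higher. Cells that met neither line definition, which can come from either line, lay between the lines, with Apoc2 at 40.2 CPM and Apoa2 at 19.4 CPM in the ESC library.

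**Figure D1:**
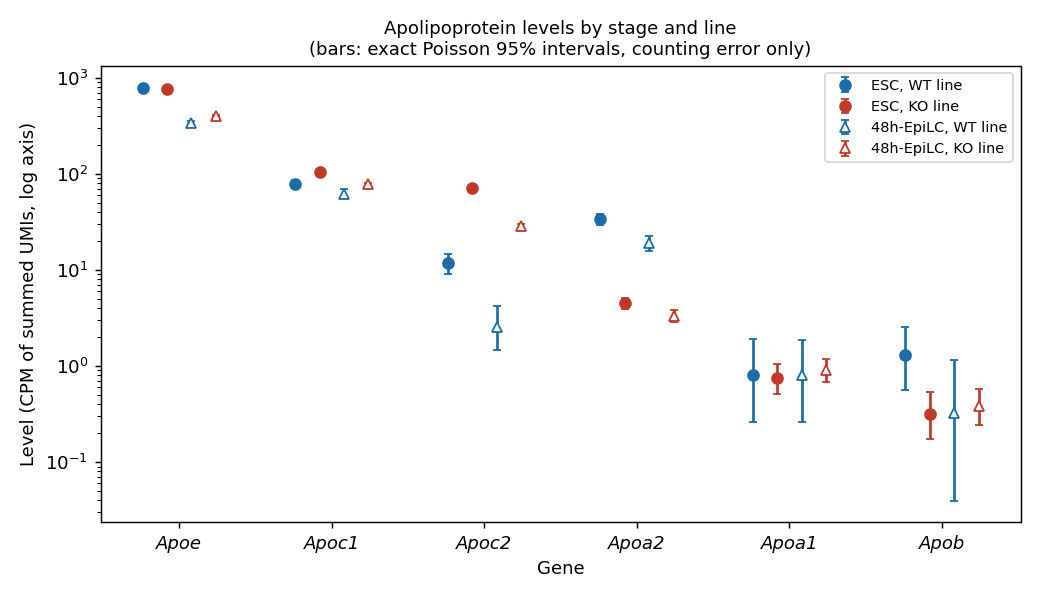
Level of each apolipoprotein gene in CPM of summed UMIs (log axis) in WT-line (blue) and KO-line (red) cells of the ESC library (filled circles) and the 48h-EpiLC library (open triangles), with exact Poisson 95% intervals that cover counting error only. Apoe lies between 342 and 789 CPM in all 4 classes, Apoc2 and Apoa2 separate by line in opposite directions, and Apoa1 and Apob lie near or below 1 CPM.

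Apoa1 and Apob were close to the detection limit. Apoa1 had 5 UMIs in 435 WT-line ESCs (0.812 CPM) and 33 in 2978 KO-line ESCs (0.748 CPM), and 5 (0.804 CPM) and 54 (0.911 CPM) in WT-line and KO-line 48h-EpiLCs. Apob had 8 UMIs (1.30 CPM) and 14 UMIs (0.317 CPM) in WT-line and KO-line ESCs, and 2 (0.322 CPM) and 23 (0.388 CPM) in 48h-EpiLCs. Neither gene reached 5 CPM in any of the classes compared between lines or stages, the limit set for calling a difference. So the scaffold of the large lipoprotein particles and the main protein of high-density particles were barely detected, while Apoe and Apoc1 were detected readily in both lines, Apoc2 readily in the KO line and Apoa2 readily in the WT line.

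Between the lines, Apoc2 was higher and Apoa2 lower in KO-line cells of both stages, and Apoc1 and Apoe differed by far less than 2-fold. In ESCs Apoc2 was 6.06-fold higher in the KO line (95% interval 4.80 to 7.77, from 3127 and 72 UMIs) and in 48h-EpiLCs 11.1-fold higher (6.80 to 19.4, from 1689 and 16 UMIs). Apoa2 was 7.46-fold lower in the KO line in ESCs (6.11 to 9.11, from 198 and 206 UMIs) and 5.77-fold lower in 48h-EpiLCs (4.55 to 7.29, from 195 and 118 UMIs). Apoc1 was 1.32-fold higher (1.20 to 1.45) in KO-line ESCs and 1.24-fold higher (1.12 to 1.38) in KO-line 48h-EpiLCs. Apoe was at 0.966 of the WT level (0.937 to 0.996) in KO-line ESCs and at 1.18 of it (1.13 to 1.23) in 48h-EpiLCs. Fibroblast markers also moved with the line in ESCs. Of the 114 feeder-like cells, 39 met the KO-line and 1 the WT-line definition, and the summed level of the 6 fibroblast markers was 30.02 CPM in KO-line and 7.64 CPM in WT-line ESCs, with 1 marker at 0 in the WT line. Without feeder-like cells the log2 ratio was 2.53 for Apoc2 and -2.64 for Apoa2, beside 2.50 and -2.65 with them. The small difference of Apoe in ESCs turned its direction when cells were thinned to 5000 UMIs each (log2 ratio 0.02) or when the 10% of cells with the most UMIs were left out (0.04).

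A gene was called when it differed by at least 2-fold on the scale of log2(CPM + 1) and reached 5 CPM in either class. In ESCs 1 of the 4 members that reached 5 CPM was called higher in the KO line (Apoc2) and 1 lower (Apoa2). Of the 9706 genes compared, 4.49% were called higher and 1.71% lower. In 48h-EpiLCs the same 2 members were called in the same directions, where 2.82% of 9742 genes were called higher and 1.18% lower. The median log2 ratio was 0.17 over the members that reached 5 CPM against 0.13 over all genes in ESCs, and 0.27 against 0.08 in 48h-EpiLCs. Since the members were chosen on this comparison, nothing is read from their share.

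**Figure D2:**
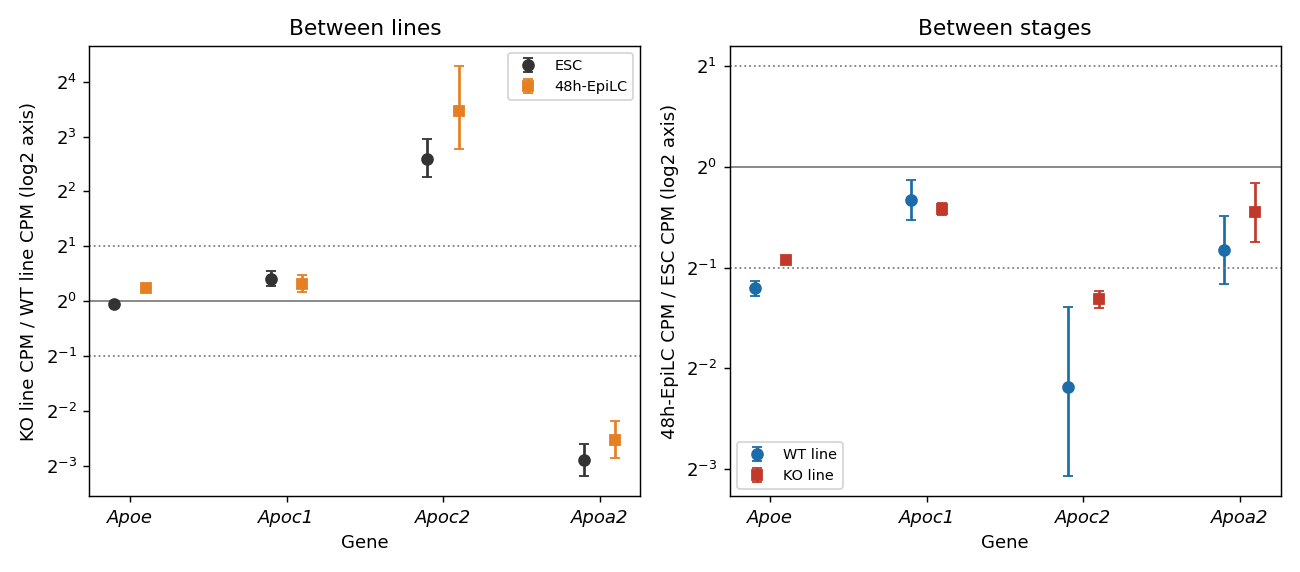
Ratio of CPM on log2 axes for the 4 members that reached 5 CPM in WT-line ESCs, KO line over WT line in each stage (left) and 48h-EpiLC over ESC in each line (right), with exact 95% intervals that cover counting error only and dotted lines at 2-fold. On the left Apoc2 lies at 6.06 and 11.1 and Apoa2 at 0.134 and 0.173, and on the right all 8 ratios lie below 1.

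The share of cells with at least 1 UMI followed the same split. Apoc2 was detected in 14.0% of WT-line ESCs (exact binomial 95% interval 10.9 to 17.6) and 60.1% of KO-line ESCs (58.3 to 61.8). Apoa2 was detected in 34.3% (29.8 to 38.9) of WT-line and 5.64% (4.84 to 6.53) of KO-line ESCs. At a common depth of 5000 UMIs, Apoc2 was in 5.30% and 29.7% and Apoa2 in 15.4% and 1.76% of WT-line and KO-line ESCs, and in 48h-EpiLCs Apoc2 was in 1.36% and 13.0% and Apoa2 in 9.54% and 1.62%. Thinning left out 1 WT-line and 23 KO-line ESCs, and 1 and 9 48h-EpiLCs. Feeder-like cells were taken as a rough measure of background in the ESC library. Free RNA, mixed droplets and transcripts of the feeder cells themselves cannot be told apart in them. At 5000 UMIs they held Apoc2 in 7.08% and Apoa2 in 1.77% of cells (17.5% and 7.89% without thinning, at a median of 16156 UMIs). The Apoc2 share of WT-line ESCs and the Apoa2 share of KO-line ESCs were thus at or below the shares in feeder-like cells. In the other line each share was higher. At 5000 UMIs the feeder-like shares rest on 113 cells and are given without an interval. How much of either signal is background was not tested. In feeder-like cells the level of the members was 25.6% (Apoe), 29.7% (Apoc2), 41.6% (Apoc1) and 47.0% (Apoa2, from 15 UMIs) of that in the other cells of the library. Among genes of pluripotent cells it was 29.7% for Pou5f1, 33.3% for Sox2, 29.1% for Zfp42, 23.8% for Nanog and 32.3% for Esrrb. The other naïve markers were higher, with Klf2 at 48.1%, Tbx3 at 65.9% and Klf4 at 178%.

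**Figure D3:**
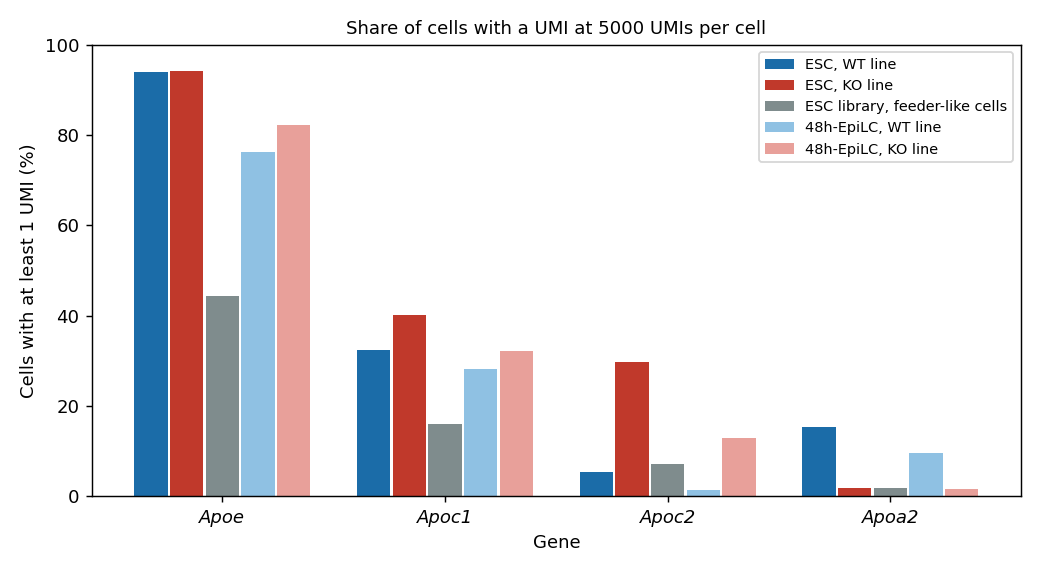
Share of cells with at least 1 UMI of Apoe, Apoc1, Apoc2 and Apoa2 after thinning to 5000 UMIs per cell, for WT-line and KO-line cells of both libraries and for the feeder-like cells of the ESC library (grey). The WT-line bar of Apoc2 in ESCs (5.30%) and the KO-line bar of Apoa2 (1.76%) are at or below the feeder-like bars (7.08% and 1.77%).

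Apoe was found in nearly all cells at full depth, in 98.9% of WT-line and 99.1% of KO-line ESCs and in 97.0% and 99.1% of 48h-EpiLCs, beside 76.3% of feeder-like cells. At 5000 UMIs Apoe was found in 94.0% and 94.2% of ESCs and 76.3% and 82.1% of 48h-EpiLCs, against 44.2% in feeder-like cells. Apoe also varied more from cell to cell than counting alone gives. The variance of its thinned counts was 2.39 times the mean in WT-line ESCs and 1.78 times in KO-line ESCs, and 1.48 and 1.42 times in 48h-EpiLCs, where counting error alone gives a ratio of 1. For Apoc1 and Apoc2 this ratio lay between 0.93 and 1.07 in these classes, and for Apoa2 between 1.01 and 1.12. These genes have far lower mean counts than Apoe, and at low means the ratio lies near 1 even where levels vary. The ratios are therefore not compared between genes or stages. Macrophages are a further known source of Apoe. Of 5 macrophage markers, Csf1r, Ptprc, Lyz2 and Tyrobp were each at 0.227 CPM or less in both lines and stages. Over all ESC-library cells that were not feeder-like, with or without a line, Lyz2 was at 1.23, Tyrobp at 0.287, Csf1r at 0.244 and Ptprc at 0.129 CPM. Cd68, a lysosomal protein also made outside that lineage, was at 28.6 CPM in WT-line and 35.8 CPM in KO-line ESCs, and its 48h-EpiLC levels were 9.003 and 17.2 CPM.

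Co-detection was counted over all cells and within each line. Because Apoc2 and Apoa2 differ between the lines, a deficit in pooled cells follows from that difference and adds no support for it. Among 10439 ESC-library cells at 5000 UMIs, 718 held Apoa2 and 2158 held Apoc2, and 58 held both, where the product of the shares gives 148. In 48h-EpiLCs 14 of 9196 cells held both, where the product gives 35.9. The observed number was thus 0.391 and 0.39 of the product. Within the KO line it was 0.899 of the product in ESCs (14 cells against 15.6), and within the WT line 1.12 (4 cells against 3.56). Apoc1 and Apoc2 were found together in 877 cells, which was 1.12 of the product over the ESC library and 1.03 within the KO line. The correlation of log-scaled values across these cells was -0.08 for Apoa2 and Apoc2, and no pair of members went above 0.07 (Apoc1 and Apoe). Values this weak in sparse counts, with both lines pooled, are no finding. Over 11252 genes, the genes most like each member were Rps18 for Apoa2 (r = 0.20), Gm10260 for Apoc2 (0.24) and Apoc1 (0.07), and Hsp90aa1 for Apoe (0.15).

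The genes around the members were followed to see how far the differences between lines reached along the chromosome. Around Apoc2 and Apoe, the log2 ratio of KO over WT in ESCs was 1.30 for Relb, 0.72 for Clptm1, 2.50 for Apoc2, 1.00 for Apoc4 (just short of a call), 0.40 for Apoc1, -0.05 for Apoe, 0.11 for Tomm40, 0.33 for Nectin2, -0.36 for Bcam and -0.95 for Cblc. Further out on the side of Relb it was 0.29 for Clasrp, 0.70 for Zfp296 and 0.28 for Gemin7. The log2 ratio was thus positive for every gene on that side that reached 5 CPM. Apoc2 had the largest ratio in a neighbourhood in which Relb, a subunit of NF-kappaB, was the only other gene called. Apoe, whose start lies 21.25 kb away, did not follow it. In 48h-EpiLCs the 8 genes other than the members that reached 5 CPM within 100 kb of Apoc2 had log2 ratios from -0.28 to 0.62. Around Apoa2, the 8 neighbours that reached 5 CPM in ESCs had log2 ratios from -0.54 to 0.21, and the 7 in 48h-EpiLCs from -0.52 to 0.28, beside -2.65 and -2.22 for Apoa2. None of them was called.

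**Figure D4:**
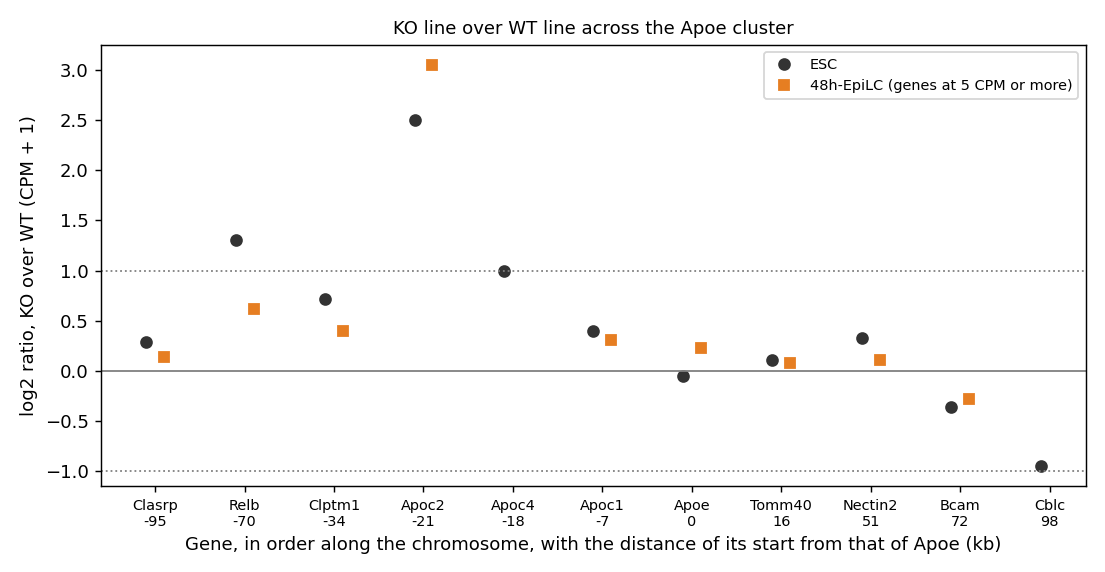
Log2 ratio of KO over WT line on the scale of CPM + 1 for genes in their order along the chromosome around Apoe, in ESCs (circles) and 48h-EpiLCs (squares), with the distance of each start from that of Apoe in kb and dotted lines at 2-fold. Apoc2 reaches 2.50 and 3.05, and the genes on the other side of Apoe from Tomm40 to Bcam lie between -0.36 and 0.33.

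Between the stages, Apoe, Apoc1, Apoc2 and Apoa2 were all at lower levels in 48h-EpiLCs than in ESCs in both lines. Apoe was 2.31-fold lower in the WT line (2.19 to 2.43) and 1.89-fold lower in the KO line (1.86 to 1.93). Apoc2 was 4.55-fold lower in the WT line (2.62 to 8.38) and 2.49-fold lower in the KO line (2.34 to 2.64). The WT-line ESC level of Apoc2 (11.7 CPM) was no higher than that of feeder-like cells (14.6 CPM, from 30 UMIs). How much of that WT-line level is background was not tested. Apoa2 was 1.76-fold lower (1.40 to 2.23) in the WT line and 1.36-fold lower (1.11 to 1.67) in the KO line, where its ESC level of 4.49 CPM lay below the 7.29 CPM of feeder-like cells. That feeder-like value rests on 15 UMIs, and how much of the KO-line level of Apoa2 is background was not tested. Apoc1 was 1.26-fold lower (1.10 to 1.44) and 1.33-fold lower (1.28 to 1.39). In the WT line 2 of 4 members that reached 5 CPM were called lower (Apoc2 and Apoe) and 0 higher, beside 5.42% of 9744 genes called lower and 5.79% higher. In the KO line 1 of 3 was called lower (Apoc2) and 0 higher, beside 4.70% of 9912 genes called lower and 3.03% higher. The median log2 ratio over the members that reached 5 CPM was -1.0 in the WT line and -0.92 in the KO line, against 0.03 and -0.02 over all genes. These medians cover 4 members in the WT line and 3 in the KO line, where Apoa2 stayed below 5 CPM. In the WT line Apoc2 reached 5 CPM in ESCs only. Since the members were also chosen on this comparison, nothing is read from their counts or medians. With 1 library per stage, differences in capture between the libraries cannot be told apart from differences between stages, and the WT and KO ratios share those 2 libraries.

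Genes that act with the apolipoproteins were taken from 7 lists of 73 genes, of which all were in the files and 30 to 35 reached 5 CPM in a comparison. Between lines, 1 of 30 was called higher and 1 lower in the KO line in ESCs, beside 4.49% and 1.71% of all genes. Nr1h5, a nuclear receptor of the farnesoid X receptor family, rose from 4.22 CPM in WT-line to 50.3 CPM in KO-line ESCs, 11.9-fold (8.11 to 18.3), and from 9.003 to 86.6 CPM in 48h-EpiLCs, 9.62-fold (7.40 to 12.8). Gc, the plasma vitamin D-binding protein, was 7.10-fold lower in the KO line in ESCs (6.06 to 8.31, 51.8 and 7.30 CPM) and 4.37-fold lower in 48h-EpiLCs (3.21 to 5.89). In 48h-EpiLCs 3 of 30 were called higher and 1 lower, beside 2.82% and 1.18% of all genes, the others being Apobec1, the enzyme that edits Apob mRNA, 3.06-fold higher (1.87 to 5.40), and Trf, the iron carrier transferrin, 2.26-fold higher (1.66 to 3.15). None of the 8 lipoprotein receptors that reached 5 CPM was called between lines in either stage, and with these shares over all genes nothing is read from a count of 0 among 8. The median log2 ratio over the list genes was 0.41 in ESCs and 0.05 in 48h-EpiLCs, beside 0.13 and 0.08 over all genes.

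Between stages, 7 of 30 list genes were called higher and 2 lower in the WT line, beside 5.79% and 5.42% of all genes. The higher ones were the receptors Lrp2 (2.34-fold), Lrp8, a receptor that binds Apoe (3.27-fold), and Lsr (2.62-fold), lipoprotein lipase itself, Lpl (2.76-fold), its maturation factor Lmf1 (2.80-fold), the sterol exporter Abcg1 (4.90-fold) and the lipid-synthesis regulator Srebf1 (3.96-fold). The lower ones were Apom, an apolipoprotein that carries sphingosine 1-phosphate (8.08-fold lower), and Gc (4.88-fold lower). In the KO line, where 3.03% of all genes were called higher and 4.70% lower, 3 of 33 list genes were called higher, Apobec1 (2.36-fold), Lpl (2.58-fold) and Abcg1 (2.39-fold), and 4 lower, Apoc4 (3.25-fold lower), Apom (4.24-fold lower), the cholesterol exporter Abca1 (5.75-fold lower) and Gc (3.01-fold lower). In the KO line Apoc2, the activator of lipoprotein lipase, was thus lower in 48h-EpiLCs while the lipase was higher. In the WT line the lipase was higher as well, but the ESC level of Apoc2 was no higher than in feeder-like cells. The 5 genes called higher in the WT line alone had KO-line ratios of 2.05 (Lrp2), 2.02 (Lsr), 1.85 (Srebf1), 1.64 (Lmf1) and 1.62 (Lrp8), the first 2 just short of a call on the log2(CPM + 1) scale. Conversely, the genes called in the KO line alone did not reach 5 CPM in the WT line. There Abca1 was 4.88-fold lower (1.99 to 14.4) and Apoc4 4.38-fold lower (1.20 to 24.0, from 3 and 13 UMIs). Apobec1 was at 0.688 of its WT-line ESC level (0.340 to 1.36).

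Gata6/Sox17-positive ESCs were examined next, because apolipoproteins are abundant in the endoderm derived from such cells. Leaving out feeder-like cells, 687 of 10940 ESC-library cells had at least 1 UMI of Gata6 or Sox17. Of 14 further primitive endoderm markers, 12 were at least 2-fold higher in them. This rested on cells with more than 1 UMI: 3 of 14 were 2-fold higher in the 396 cells with exactly 1 UMI, 12 in the 141 cells with 2 to 4 and 13 in the 150 cells with 5 or more. Among list genes, the receptor pair Cubn (9.39-fold) and Amn (7.89-fold), which takes up Apoa1 and other ligands in visceral endoderm, and the regulators Gata4 (24.1-fold) and Foxa2 (16.4-fold) were higher. All 4 are also in the marker list, so their values are not a further check of the cells.

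The 4 members that reached 5 CPM did not share this rise. Apoe was 1.07-fold higher in the positive cells (1.04 to 1.09, at 834 and 783 CPM), Apoc1 1.10-fold (1.03 to 1.17) and Apoc2 1.10-fold (1.00 to 1.20), and Apoa2 was 1.47-fold lower (1.21 to 1.80, at 10.8 and 15.9 CPM). Apoa1 had 9 UMIs (0.917 CPM) and Apob 5 UMIs (0.509 CPM) in the positive cells, beside 0.571 and 0.455 CPM in the negative ones. Their ratios of 1.61 (0.707 to 3.22) and 1.12 (0.351 to 2.76) have intervals that hold both 1 and 2-fold, so these 2 genes cannot be judged. None of the 4 members that reached 5 CPM was called in either direction, beside 1.07% of 9557 genes called higher and 0.0209% lower, and the median log2 ratio was 0.11 over them against 0.03 over all genes. Here too the members were chosen on the comparison, and nothing is read from their count or median. In the 150 cells with 5 or more UMIs the level was 842 CPM for Apoe, 115 CPM for Apoc1, 46.2 CPM for Apoc2 and 8.10 CPM for Apoa2, and Apob had no UMI, which allows up to 1.43 CPM.

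**Figure D5:**
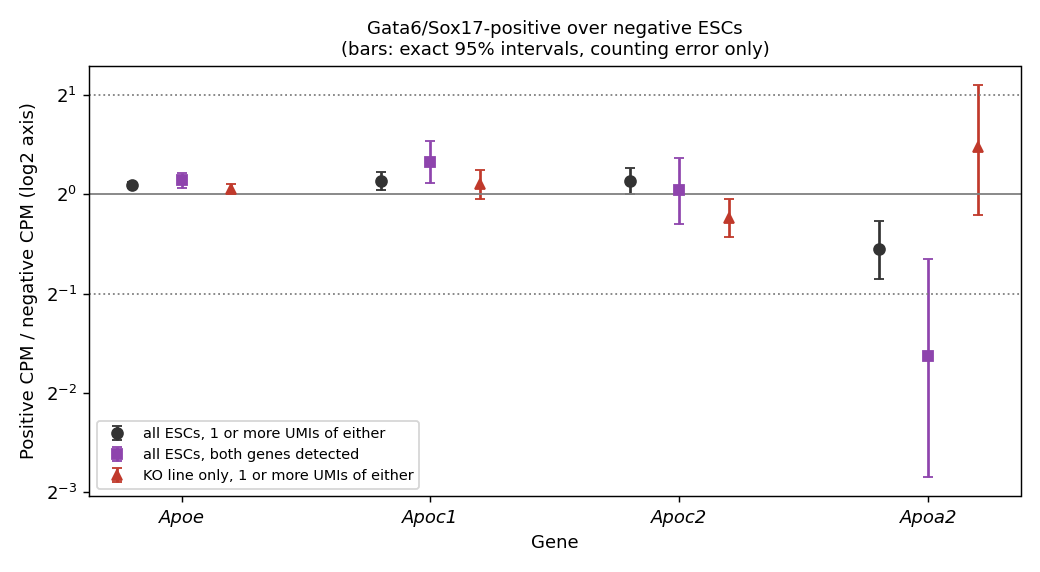
Ratio of CPM in Gata6/Sox17-positive over negative ESCs (log2 axis) for all ESCs with at least 1 UMI of either gene (circles), for ESCs with both genes detected (squares) and for the KO line alone (triangles), with exact 95% intervals that cover counting error only and dotted lines at 2-fold. Apoe, Apoc1 and Apoc2 lie between 0.847 and 1.25 throughout, and Apoa2 runs from 0.323 with both genes detected to 1.39 within the KO line.

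The lines were not equally spread over the cells with at least 1 UMI of Gata6 or Sox17, and this moved with the 2 members that differ by line. Of the cells with a line, KO-line cells made up 94.9% (91.4 to 97.2) of the positive and 86.5% (85.3 to 87.7) of the negative ESCs. Counted the other way, 8.20% of 2939 KO-line ESCs (7.23 to 9.25) and 3.00% of 434 WT-line ESCs (1.60 to 5.07) were positive, or 4.90% and 2.08% at 5000 UMIs. With a stricter limit the intervals of the lines overlapped: 4.12% (3.43 to 4.90) of KO-line and 2.07% (0.953 to 3.90) of WT-line ESCs had 2 or more UMIs, and 2.21% (1.71 to 2.81) and 1.61% (0.651 to 3.29) had 5 or more. KO-line cells made up 90.3% (81.0 to 96.0) of the cells with a line at 5 or more UMIs, which overlaps their share of the negative ESCs. In 48h-EpiLCs the shares with at least 1 UMI were 1.98% and 1.90%. Within the KO line, Apoa2 was 1.39-fold higher in positive cells (0.867 to 2.14, from 24 UMIs), the opposite direction to the pooled value, with an interval that includes 1. Apoc2 was at 0.847 of the level of negative cells there (0.740 to 0.966), Apoc1 at 1.07 (0.968 to 1.18) and Apoe at 1.04 (0.999 to 1.08). The WT line had 13 positive cells with 1 Apoc2 and 4 Apoa2 UMIs, too few for a direction. Among negative ESCs alone the KO line had 6.18-fold more Apoc2 (4.88 to 7.95) and 7.73-fold less Apoa2 (6.28 to 9.53) than the WT line. Positive cells were a small part of either line, so leaving them out could move these ratios only little. Nothing is therefore read from how little they moved.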

How the data were processed

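The 2 libraries were made with 10x Genomics 3′ kits from mixed WT and Cnot8 KO cells. The authors ran Cell Ranger (version 3.0.2, default parameters) on mm10 plus the tdTomato coding sequence, and deposited its raw UMI counts per feature and barcode. The sources used here state neither a correction for free RNA nor counting by strand. The submitters' processing notes also name Seurat (version 4).

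Cells needed 1000 or more genes and no more than 10% mitochondrial UMIs. UMIs were summed per class and scaled to the class total (CPM). No doublet caller was run. Cells with both tdTomato and at least 2 Y-linked UMIs fall in neither line, and leaving out the 10% of cells with the most UMIs was an alternative. With 1 library per stage and cells not being replicates, there is no test and no p-value. CPM carries exact Poisson intervals, shares carry exact (Clopper-Pearson) binomial intervals, and ratios carry the exact binomial interval given their summed UMIs, all at 95%. A count of 0 was given a limit of 3 counts. A gene was called at 2-fold or more on the log2(CPM + 1) scale, which understates changes of low genes, with at least 5 CPM in either class. Shares at equal depth used cells thinned to 5000 UMIs. The calling and the intervals were tested on simulated counts.

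The members, the marker lists and the gene lists were chosen with earlier results of these data known. Named were the 6 members, list genes past the call, the 3 genes best correlated with each member and the neighbours within 100 kb. For brevity only the first of those 3 is given, and neighbours at 5 CPM or more. The values of 1 list gene are not reported here. Alternatives were another scaling (TMM of edgeR, version 4.0.16), other totals, pseudocount, cell filters, depth and class definitions. Python (version 3.11.15) with numpy (2.4.6), scipy (1.17.1) and pandas (2.3.3) was used. Barcodes over 10% mitochondrial UMIs entered no comparison between lines, stages or Gata6/Sox17 classes, and are described only in the closing section.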

Additional observations from a re-analysis of the deposited data

Results flagged for a closer look

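Apoe lay on opposite sides of equality in the 2 stages, with intervals that excluded 1 in both. The KO line was at 0.966 of the WT line in ESCs and at 1.18 of it in 48h-EpiLCs. The difference between the stages was not tested, and the ESC value changed its direction under 2 of its alternatives.

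Barcodes with over 10% mitochondrial UMIs, which the comparisons between lines, stages and Gata6/Sox17 classes left out, held more Apoe as a share of non-mitochondrial UMIs than the kept cells. The ratio was 2.50 (2.42 to 2.59, at 2029 and 810 CPM) in 1376 barcodes of the ESC library and 2.32 (2.24 to 2.42, at 927 and 399 CPM) in 2267 barcodes of the 48h-EpiLC library. The median log2 ratio over all genes at 5 CPM or more was 0.23 and 0.27. Apoc2, Apoc1 and Apoa2 did not rise with Apoe: Apoc2 was at 0.716 (0.548 to 0.919) and 0.525 (0.351 to 0.756) of the kept cells, Apoc1 at 0.877 (0.741 to 1.03) and 0.842 (0.723 to 0.975), and Apoa2 at 1.02 (0.676 to 1.48) and 0.976 (0.647 to 1.42). Apoa1 and Apob stayed below 5 CPM in these barcodes and in the kept cells. Apob was at 3.66 (0.736 to 11.2, from 3 UMIs) and 4.83 (1.88 to 10.5, from 7 UMIs) of the kept cells. Apoa1 was at 0.956 (0.0239 to 5.47, from 1 UMI) and 1.60 (0.430 to 4.20, from 4 UMIs). The median depth of the barcodes over 10% mitochondrial in the ESC library was 1367 UMIs.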

How the results depend on the processing

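No paired analysis was possible because each stage has 1 library and the result comes from no test. Of 143 alternative values of the counts of called members and of the Gata6/Sox17-positive shares, 135 stayed within 1.5 times the count or within the counting interval, and all 8 others concern Gata6/Sox17. The counts of members called between lines and between stages were the same under every alternative run. The share of Gata6/Sox17-positive ESCs became 0.691% in the WT line and 1.80% in the KO line with both genes detected. In the KO line it became 4.90% at 5000 UMIs per cell, 4.12% with 2 or more UMIs and 11.5% with KO cells defined by at least 4 Y-linked UMIs. Of the Gata6/Sox17 comparison, 1 member was called lower with both genes detected (Apoa2). The 2 alternatives within a line were added after seeing the data. Within the WT line, with 13 positive cells, 1 member was called higher (Apob, from 1 UMI) and 1 lower (Apoc2, from 1 UMI). Log2 ratios of single members were computed under 396 alternatives, of which 25 moved by more than the counting error and 8 reversed, where a reversal is a change of sign of a ratio whose interval excluded 1. A further 10 changes of sign were of Apoa1 and Apob, whose intervals included 1. Reversed were Apoe between lines in ESCs (0.02 at 5000 UMIs per cell, 0.04 without the 10% of cells with the most UMIs) and, between Gata6/Sox17 classes, Apoa2 (0.40) and Apoc2 (-0.24) within the KO line, Apoc1 (-0.61), Apoc2 (-1.06) and Apoe (-0.11) within the WT line, and Apoc2 (-0.07) with 5 or more UMIs. The cause was not tested. TMM scaling moved the median of all genes between lines in ESCs by -0.11. Between lines Apoc2 ranged from 2.24 to 2.90 in ESCs and from 2.16 to 3.42 in 48h-EpiLCs, and Apoa2 from -3.17 to -2.26 and from -2.89 to -1.85. With 1 library per stage, depth sets only the counting error, which leaves Apoa1 and Apob without a usable ratio.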

Other observations

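The ESC library also held cells with different amounts of Nanog, a naïve pluripotency factor that varies between ESCs in serum. Between 1087 cells with at least 3 Nanog UMIs and 5927 cells with none, Apoe was at 0.957 (0.938 to 0.975), Apoc1 at 1.04 (0.988 to 1.10), Apoc2 at 0.703 (0.645 to 0.766) and Apoa2 at 1.18 (1.03 to 1.34) of the level in cells with none. KO-line cells made up 81.0% of the cells with a line at 3 or more UMIs and 89.7% at none. Within the KO line Apoa2 was at 2.48 (1.65 to 3.67, from 40 and 78 UMIs), Apoc2 at 0.832 (0.731 to 0.944) and Apoe at 0.894 (0.861 to 0.929). Within the WT line Apoa2 was at 0.637 (0.379 to 1.03, from 22 and 85 UMIs), with an interval that includes 1. Cells with 3 or more Nanog UMIs were also deeper, with a median of 13813 against 11331 UMIs, and the part of depth in these values was not tested.

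In the 30 ESC-library cells with at least 5 UMIs of 2-cell-stage markers, Apoe was at 618 CPM (539 to 706), 0.786 of the level in all cells that were not feeder-like (0.685 to 0.897). Apoc1 was at 95.6 CPM (66.2 to 134), 1.01 of that level (0.699 to 1.41). Apoc2 was at 0.860 of it (0.481 to 1.42, from 15 UMIs) and Apoa2 at 0.544 (0.112 to 1.59, from 3 UMIs). Apoa1 was 9.45-fold higher (1.13 to 35.2), which rests on 2 UMIs, and Apob had no UMI, which allows up to 8.43 CPM.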
